A study of Mus musculus with 2 samples.

Results

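The 42 genes described here work in DNA replication and in mitosis. They were taken as a list of gene symbols, 42 of the 55536 genes in the deposited tables, and no measured value enters the rule, but the list was drawn up with earlier results of these data known. By function, 16 were placed with DNA replication and entry into S phase and 26 with mitosis and cell division. Total RNA from the gastrocnemius, a calf muscle, was sequenced in 2 libraries labelled as biological replicates 1 and 2, each from 300 ng of RNA. Both came from female B6CASTF1/J mice aged 14 days, first-generation hybrids of C57BL/6J and CAST/EiJ. No treatment or second genotype is labelled, so the study has 1 group, and no condition can be compared. Both libraries are described as 3 females, while the tissue description of replicate 2 names a single female, so it is not clear whether a replicate is 1 animal or a pool. The 2 libraries share a strain identifier, and p-values below measure only how far their read counts differ.

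A cell copies its DNA once per cycle. In G1 the origin recognition complex, Cdc6 and Cdt1 load the Mcm2 to Mcm7 ring, a helicase, onto DNA; in S phase the ring opens the double helix while Pcna, a sliding clamp, holds the polymerases and ribonucleotide reductase supplies deoxynucleotides. E2F factors switch on many replication genes at the border of G1 and S, and the mitosis genes are transcribed later, in G2, many of them through CCAAT boxes and an element called the cell cycle homology region, or CHR. In young muscle the nuclei inside fibres have left the cell cycle, and dividing cells are found among satellite cells, fibroblasts, endothelial cells and blood-derived cells. In bulk RNA such as this, fewer cells of a dividing type and less RNA per cell cannot be told apart.

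Promoter sequences are shown first because the genes fall into replication and mitosis sets with different known control elements. RefSeq promoter sequences of assembly GRCm38.p6, which is mm10, were matched by symbol for 36 of the 42 genes, with 39 entries because some genes have more than 1 start. Mcm4, Ccne2, Ccna2, Aurkb, Tpx2 and Kif20a had no entry. The 250 bases before each RefSeq start were searched on both strands for CCAAT and for the CHR, spelled TTTGAA in its first form and TTCGAA in its other form. The E2F element was spelled TTGGCGC in the first form searched, while TTCCCGC was the second form, followed by TTCGCGC as the third and then by TTGCCGC as the fourth. E2F matches on the 2 strands can overlap each other, and E2F matches can overlap CCAAT. The following 5 sequences run 5′ to 3′ towards the start, with matched letters in capitals. They were picked after the matches and values were known, as 2 replication genes whose count differed between the libraries, 2 mitosis genes whose count did not pass the test, and Mki67, which holds all 3 kinds of motif. Their places are chr8:75109259-75109508 on the plus strand for Mcm5 and, on the minus strand, chr1:128359706-128359955 for Mcm6, chr9:70421555-70421804 for Ccnb2, chr4:118437344-118437593 for Cdc20 and chr7:135716380-135716629 for Mki67.
Mcm5: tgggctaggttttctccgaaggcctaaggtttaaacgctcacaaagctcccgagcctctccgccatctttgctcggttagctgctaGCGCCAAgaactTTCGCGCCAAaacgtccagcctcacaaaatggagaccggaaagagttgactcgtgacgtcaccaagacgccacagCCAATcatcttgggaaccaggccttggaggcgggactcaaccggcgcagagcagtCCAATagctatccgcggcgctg
Mcm6: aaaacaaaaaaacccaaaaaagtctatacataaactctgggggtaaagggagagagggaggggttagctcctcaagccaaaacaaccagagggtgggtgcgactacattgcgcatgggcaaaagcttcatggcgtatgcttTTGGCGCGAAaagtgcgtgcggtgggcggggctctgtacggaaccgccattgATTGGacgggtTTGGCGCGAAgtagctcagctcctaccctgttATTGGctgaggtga
Ccnb2: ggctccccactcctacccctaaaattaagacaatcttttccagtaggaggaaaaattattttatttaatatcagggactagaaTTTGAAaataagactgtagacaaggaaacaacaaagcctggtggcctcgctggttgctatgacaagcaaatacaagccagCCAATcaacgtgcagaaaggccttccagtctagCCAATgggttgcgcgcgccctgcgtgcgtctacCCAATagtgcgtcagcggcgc
Cdc20: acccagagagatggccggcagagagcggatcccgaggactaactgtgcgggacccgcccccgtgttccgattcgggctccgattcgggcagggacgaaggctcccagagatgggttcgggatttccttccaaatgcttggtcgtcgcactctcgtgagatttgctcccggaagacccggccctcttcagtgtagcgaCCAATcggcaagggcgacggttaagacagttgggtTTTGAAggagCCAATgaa
Mki67: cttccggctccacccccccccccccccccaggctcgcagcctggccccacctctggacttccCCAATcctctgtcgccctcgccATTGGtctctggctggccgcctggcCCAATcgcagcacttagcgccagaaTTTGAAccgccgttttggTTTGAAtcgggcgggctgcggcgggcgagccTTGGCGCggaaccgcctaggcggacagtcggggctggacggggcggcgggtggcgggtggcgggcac

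In the Mcm5 sequence, 3 E2F matches begin 164, 152 and 149 bases before the start, the latter 2 overlapping, and CCAAT stands at 77 and 22. Mcm6 holds 4 E2F matches in 2 overlapping pairs, at 109 and 106 and at 46 and 43 bases before the start, with CCAAT at 57 and 14. Ccnb2 and Cdc20 hold no E2F match. Ccnb2 has CCAAT at 87, 54 and 21 bases and a CHR match at 167, while Cdc20 has CCAAT at 53 and 8 and a CHR match at 18. Mki67 carries CCAAT at 188, 166 and 141, CHR matches at 116 and 98 and an E2F match at 67.

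CCAAT was found in 21 of 24 mitosis entries (87.5%) and in 9 of 15 replication entries (60%), against 33.8% of all 32851 RefSeq promoter entries searched over the same length. CHR letters were found in 11 of the 24 mitosis entries (45.8%) and in 2 of the 15 replication entries (13.3%), against 17.1% of all entries. The 2 replication entries were those of Mcm2 and Mcm7, and the 11 mitosis entries include 2 overlapping entries of Ect2. All 11 also held CCAAT, as most mitosis entries did, while 6.02% of all entries held both. E2F letters showed the opposite split, in 7 of the 15 replication entries (46.7%) and 4 of the 24 mitosis entries (16.7%), against 7.89% of all. The replication genes with an E2F match were Mcm5, Mcm6, Mcm7, Cdc6, Rrm1 and Rrm2, and the mitosis genes were Ccnb1, Cdk1, Ect2 and Mki67. Among the replication genes whose counts differed between the libraries, Mcm5, Mcm6 and Cdc6 had an E2F match, and Mcm2, Mcm3 and Ccne1 had none. Mcm7, Rrm1 and Rrm2 had a match, and their counts did not pass the test. A link between matches and library differences was not tested. Among promoters of the genes tested for a difference between the libraries, the shares were 34.9% for CCAAT, 12.2% for CHR and 13.2% for E2F. RefSeq starts lay a median of 18 bases from the gene start in GENCODE M21, the gene annotation used by the authors. They lay inside the M21 gene by 350 bases for Cdc6, 466 for E2f1, and 539 and 1156 for Mcm7. The windows searched for these genes thus lie within the annotated gene, and their matches or lack of matches may not describe its promoter. A match describes letters and is not a measured binding site.

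Depth was 35591969 counts assigned to genes in replicate 1 and 42105815 in replicate 2. Muscle fibre markers were abundant, as the tissue label says: Acta1, skeletal actin, stood at 28140 and 30304 TPM, Ckm, muscle creatine kinase, at 16657 and 16741, and Myh4, a fast myosin heavy chain, at 11567 and 12204. TPM is abundance corrected for transcript length and scaled to a fixed sum in each library. All 42 genes had reads in both libraries, with 74 to 3365 counts summed over both, and none was lost to the filter of at least 20 counts. At least 1 TPM in both libraries was reached by 37 of the 42, compared with 21.5% of all genes and 50.0% of protein-coding genes. The 42 together held 118 TPM in replicate 1 and 144 TPM in replicate 2, which is 0.0120% and 0.0146% of all TPM. TPM was higher in replicate 2 for 35 of the 42, but also for 11177 of the 15734 genes with at least 20 counts. The median TPM of those 15734 genes was 4.55 in replicate 1 and 5.14 in replicate 2. TPM pairs and sums below are to be read against that shift. Mean TPM ran from 0.43 to 13.6 with a median of 2.46.

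Pcna was the most abundant of the 42, with 12.5 TPM in replicate 1 and 14.6 in replicate 2 (13.6 ± 1.46, mean ± SD, n = 2). Rrm1, the large subunit of ribonucleotide reductase, followed with 8.19 and 8.30 TPM, and Top2a, the topoisomerase that untangles replicated chromosomes, with 6.42 and 8.23 TPM. The ranges of Rrm1 and Top2a overlapped, so their order is not settled, whereas both libraries put Pcna above every other gene of the list. Next came Mcm7, Mki67 and Cdk1 at means of 5.59, 5.51 and 5.34 TPM, whose ranges also overlapped. At the low end, Cdc6 stood at 0.25 and 0.61 TPM and Bub1, a spindle checkpoint kinase, at 0.57 and 0.72, both under 1 TPM in both libraries. Ccne1 and Cdt1 passed 1 TPM in replicate 2 and Cenpe in replicate 1.

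**Figure D1:**
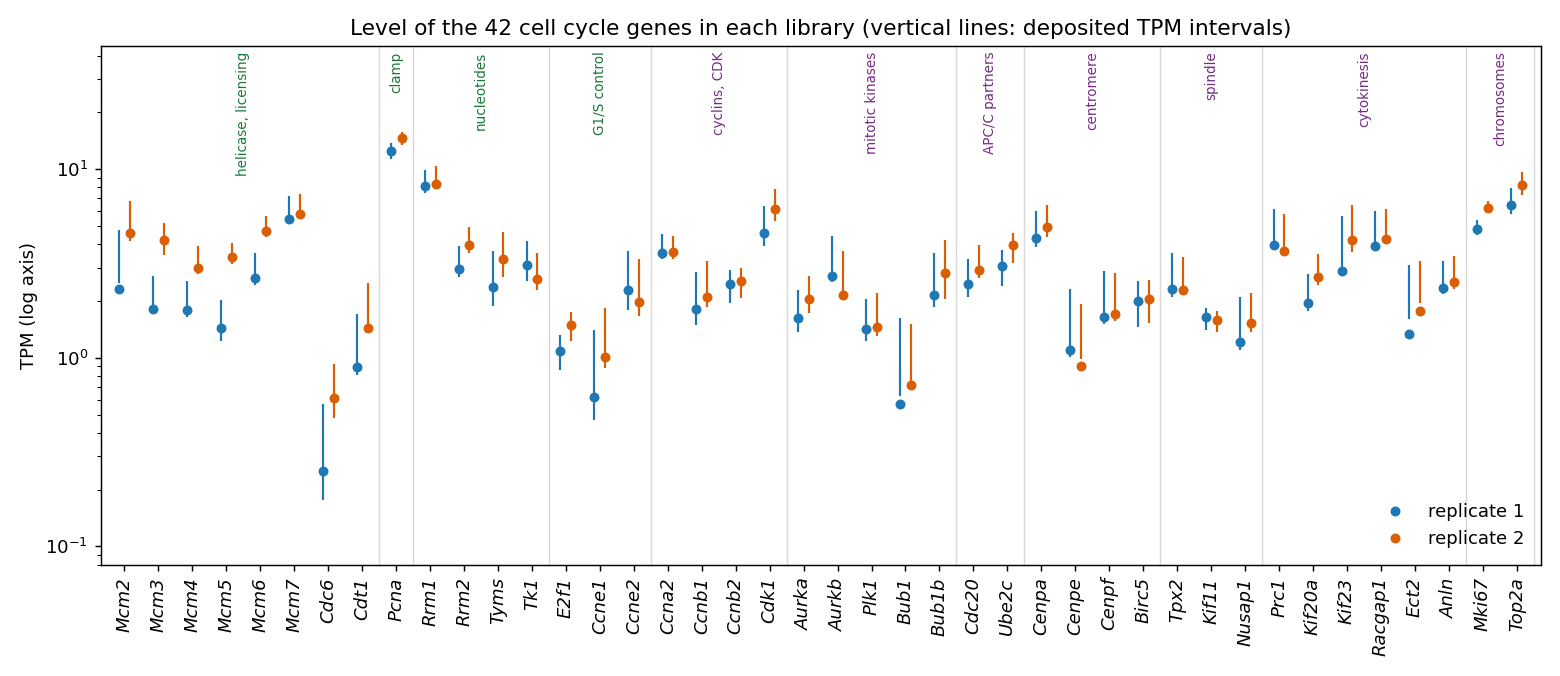
TPM of each of the 42 genes in replicate 1 (blue) and replicate 2 (orange), on a log axis, grouped by role, with replication roles in green and mitosis roles in purple. Vertical lines are the deposited intervals, which are centred on a posterior mean and need not hold the TPM value. The intervals of Mcm3 to Mcm6 and Mki67 do not overlap between the libraries, and those of the other mitosis genes do. The share of all genes whose intervals separate is not given here.

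The 16 replication genes summed to 49.7 TPM in replicate 1 and 65.0 in replicate 2, and the 26 mitosis genes to 68.3 and 79.1 TPM. Replication over mitosis was therefore 0.728 in replicate 1 and 0.822 in replicate 2 (0.775 ± 0.0662, SD, n = 2). Pcna alone carried 13.6 of the mean replication sum of 57.4 TPM. Without Pcna and Ccnb1, whose reads are partly shared with other loci, the ratio was 0.607. In the quantification made directly from the reads it was 0.979, and the ratio of the medians in place of the sums was 1.16, so which set is more abundant depended on the measure.

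Differences between the libraries are given as the log2 ratio of replicate 2 over replicate 1, after scaling the library sizes with TMM, and were tested gene by gene with a two-sided exact binomial test adjusted over 15734 genes. The test covers counting error only and compares these 2 libraries. At an adjusted p under 0.05, 8 of the 42 genes were higher in replicate 2 and 0 were lower, where over all genes tested 14.8% were higher and 16.7% lower. The 8 are Mcm2, Mcm3, Mcm4, Mcm5, Mcm6, Cdc6, Ccne1 and Mki67. With a change of at least 2-fold also required, Mcm5 and Ccne1 were called, where 1.75% of all genes were called higher and 1.64% lower. Replication genes made up 7 of the 8, or 7 of 16 (43.8%), and mitosis genes 1 of 26 (3.85%), while 15.0% of tested genes in the same range of summed counts were higher and 14.2% lower. In that range 1.32% of genes were called at 2-fold as higher and 1.24% as lower. The median log2 ratio was 0.54 over the replication genes and 0.08 over the mitosis genes, next to 0.01 over tested genes in the same count range. For 15 of the 42 genes, none of them past counting error, the sign of the log2 ratio changed with another scaling or quantification.

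**Figure D2:**
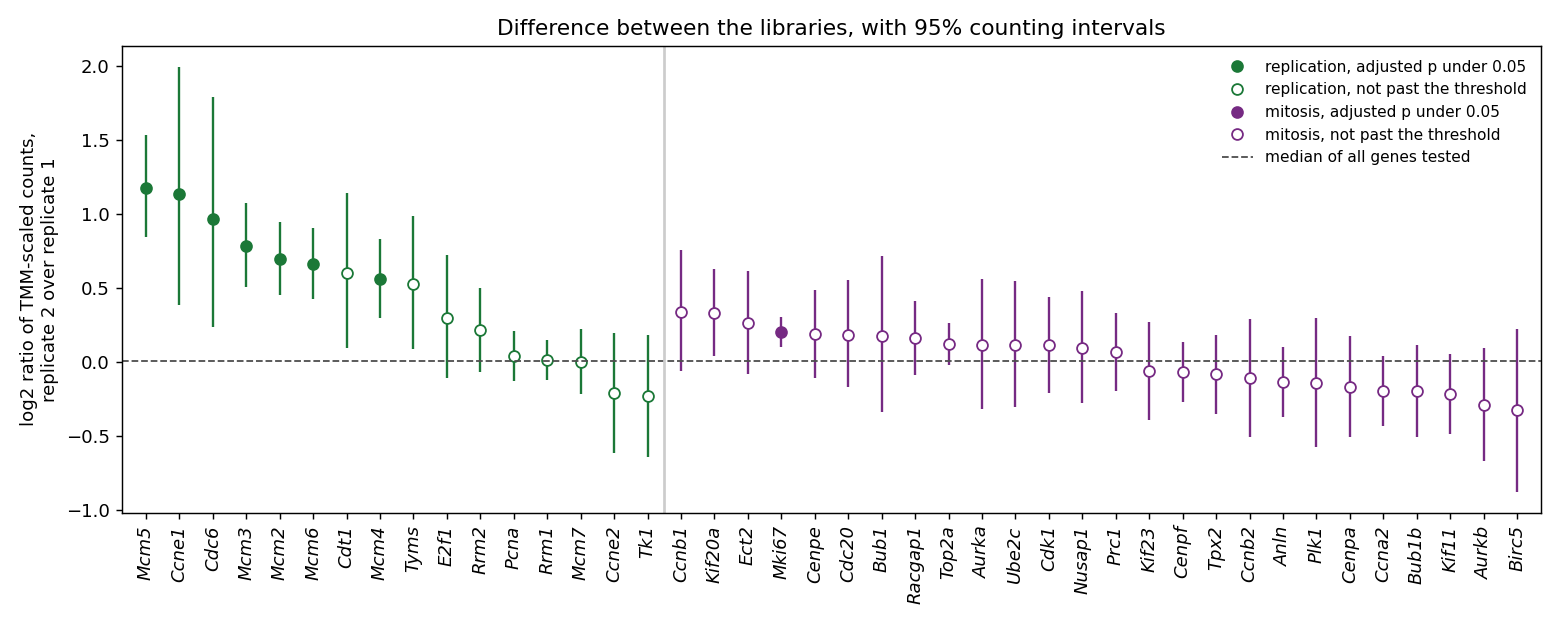
Log2 ratio of TMM-scaled counts, replicate 2 over replicate 1, for each of the 42 genes, with 95% Clopper-Pearson intervals that cover counting error only; filled points have an adjusted p under 0.05 and the dashed line is the median of all genes tested. Mcm5 and Ccne1 lie above 1 and Mcm2, Mcm3, Mcm4, Mcm6 and Cdc6 between 0.56 and 0.96, while the mitosis genes run from -0.33 to 0.34.

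The helicase subunits split 5 to 1. Mcm5 (chr8:75109569-75128439, plus strand, mm10) had 97 counts and 1.43 TPM in replicate 1 and 286 counts and 3.44 TPM in replicate 2, a log2 ratio of 1.18 (95% interval 0.85 to 1.53, exact binomial adjusted p = 2.86e-12). It had the highest ratio of the 42 in the gene table; in the direct quantification Ccne1 was higher (1.17 against 1.07). Mcm3 (chr1:20802968-20820312, minus strand) stood at 1.82 and 4.22 TPM, with a log2 ratio of 0.78. Mcm2 (chr6:88883474-88898780, minus strand) stood at 2.33 and 4.58 TPM, with 0.69. Mcm6 (chr1:128331590-128359664, minus strand) stood at 2.66 and 4.72 TPM, with 0.66, and Mcm4 (chr16:15623897-15637400, minus strand) at 1.80 and 2.99 TPM, with 0.56. All 5 passed the exact binomial test, the highest adjusted p being 1.52e-04, for Mcm4. Mcm7 (chr5:138164583-138172422, minus strand), the remaining subunit of the ring, stood at 5.44 and 5.75 TPM with a fold of 0.999 (95% interval of the log2 ratio -0.22 to 0.22). By TPM, Mcm7 was the most abundant of the 6 in both libraries, and all the other 5 came closer to it in replicate 2. By counts in replicate 2, Mcm6 with 440 and Mcm2 with 423 stood above Mcm7 with 400. Summed over Mcm2 to Mcm6, TPM was 10.04 in replicate 1 and 19.95 in replicate 2. The deposited TPM intervals of the 2 libraries did not overlap for Mcm3, Mcm4, Mcm5 and Mcm6, and overlapped for Mcm2. These intervals are not scaled with TMM, and the share of all genes whose intervals separate is not given here.

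Mcm7 differs from the other subunits in its locus. Its introns hold the microRNA genes Mir25, Mir93 and Mir106b, each with 0 counts in both libraries, and it overlaps Cops6 and Ap4m1 on the opposite strand. The overlap is 64 bases with Cops6 and 421 bases with Ap4m1. Over their whole length, Cops6 had 1432 and 1823 counts and Ap4m1 had 258 and 278. Whether the counting used strand is not stated, and the part of these neighbours in the level of Mcm7 was not tested. The direct quantification gave Mcm7 10.7 and 9.54 TPM and a log2 ratio of -0.11, and gave Mcm5 1.07, Mcm2 0.78, Mcm3 0.76, Mcm6 0.69 and Mcm4 0.56.

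Of the 2 loading factors, Cdc6 (chr11:98907801-98923940, plus strand) had 21 and 54 counts, or 0.25 and 0.61 TPM, with a log2 ratio of 0.96 (95% interval 0.23 to 1.79, exact binomial adjusted p = 0.0256). Cdt1 had 48 and 95 counts, or 0.89 and 1.44 TPM, with 0.60, and missed the threshold (adjusted p = 0.0559, exact binomial). It passed when only genes with at least 100 counts were tested (adjusted p = 0.0477). The whole of Cdt1 lies inside Gm20388, a gene model on the same strand with 2.46 and 365.84 counts in the gene table and 232 and 6.84 in the direct quantification. The counts of Gm20388 thus moved in opposite directions in the 2 quantifications, while those of Cdt1 itself were 47 and 93 in the direct one, close to the gene table.

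No difference passed the test for Pcna and the nucleotide enzymes. Pcna (chr2:132249162-132253314, minus strand) had a log2 ratio of 0.04 (95% interval -0.13 to 0.21) and Rrm1 0.01 (-0.12 to 0.15), intervals that lie below the ratios of Mcm2 to Mcm6. Rrm2, the small subunit of the reductase, stood at 2.95 and 3.95 TPM (log2 ratio 0.21). Tyms, thymidylate synthase, stood at 2.37 and 3.34 TPM (log2 ratio 0.53, exact binomial adjusted p = 0.0560), and Tk1, the thymidine salvage kinase, at 3.11 and 2.61 TPM (-0.24). Tyms passed when only genes with at least 100 counts were tested (adjusted p = 0.0479) and with total-count scaling (0.00874). In the direct quantification the log2 ratio of Tyms was lower, at 0.24 from 134 and 205 counts, against 65 and 122 counts in the gene table. Pcna shares reads with a processed copy, Pcna-ps2, listed at 28.9 and 31.9 counts in the gene table and at 2.78 and 7.40 in the direct quantification. The copies Ccnb1-ps, Pcna-ps1 and Tyms-ps had 0 counts in both libraries of the gene table, and Ccnb2-ps had 2 and 0. Tk1 lies under Gm20708, on the opposite strand, which had 0 and 39.9 counts.

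Among the G1/S regulators, the 2 E-type cyclins, partners of a kinase that starts S phase, had ratios of opposite sign, and of these Ccne1 passed the test. Ccne1 (chr7:38097984-38107534, minus strand) had 19 and 55 counts, or 0.62 and 1.01 TPM, with a log2 ratio of 1.13 (95% interval 0.38 to 1.99, exact binomial adjusted p = 0.00884). Its longer transcript, Ccne1-201, held 41.6% of the gene in replicate 1 and 83.3% in replicate 2, and its TPM differed less than its count. Ccne2 had 98 and 110 counts, or 2.28 and 1.97 TPM, and a log2 ratio of -0.21 (95% interval -0.62 to 0.20). The Ccne1 and Ccne2 intervals did not overlap; the difference between the 2 genes was not tested. E2f1, a transcription factor of the replication genes, stood at 1.08 and 1.49 TPM (log2 ratio 0.30, 95% interval -0.11 to 0.72) and did not pass.

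Of the mitosis genes, Mki67 was the single one past counting error. It encodes the Ki-67 protein that coats mitotic chromosomes and is a common marker of dividing cells. Mki67 (chr7:135689784-135716361, minus strand) had 1349 and 2016 counts, the most of the 42, or 4.81 and 6.22 TPM, with a log2 ratio of 0.20 (95% interval 0.10 to 0.30, exact binomial adjusted p = 4.07e-04). The change was 1.15-fold and its depth gave the narrowest interval of the list. Its size was close to the median absolute log2 ratio over all genes tested, 0.19. Top2a (chr11:98992943-99024189, minus strand), its partner in the chromosome group, had 673 and 949 counts and a log2 ratio of 0.12 (95% interval -0.03 to 0.26).

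The cyclins and kinase that drive mitosis stood on both sides of 0. Ccna2 was at 3.60 and 3.62 TPM (log2 ratio -0.20), Ccnb1 at 1.82 and 2.11 (0.34), Ccnb2 at 2.46 and 2.56 (-0.11) and Cdk1, their catalytic partner, at 4.57 and 6.12 (0.11). Ccna2 shows how the scales part: its TPM was level, while its TMM-scaled count ratio was below 0. None of the 4 passed. The kinases Aurka and Aurkb, of the spindle poles and of the chromosomal passenger complex, stood at 1.63 and 2.06 TPM and at 2.72 and 2.15 TPM (log2 ratios 0.11 and -0.29). Plk1, the polo-like kinase, stood at 1.42 and 1.45 TPM (-0.14), and Bub1 and Bub1b, of the spindle checkpoint, had log2 ratios of 0.18 and -0.20. The 5 kinases had a median log2 ratio of -0.14, or 0.09 with ERCC scaling.

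Cdc20, the activator of the anaphase-promoting complex, stood at 2.45 and 2.92 TPM (log2 ratio 0.18), and Ube2c, the ubiquitin-conjugating enzyme of that complex, at 3.08 and 3.94 TPM (0.11). Ube2c overlaps Tnnc2, fast troponin C, on the opposite strand over 1662 bases, and Tnnc2 had 114657 and 149878 counts against 81 and 114 for Ube2c. With the strand setting not stated, reads of the 2 genes may not be separable, and this was not tested. The centromere proteins Cenpa, Cenpe and Cenpf and the passenger protein Birc5 had log2 ratios of -0.17, 0.18, -0.07 and -0.33, the last (95% interval -0.88 to 0.22) being the lowest of the 42 in the gene table but not in the direct quantification. The spindle genes Tpx2, Kif11 and Nusap1 had -0.09, -0.22 and 0.09.

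The 6 genes of the central spindle and cytokinesis had a median log2 ratio of 0.11. Kif20a, a kinesin of the midzone, was nearest to the threshold with 157 and 256 counts and a log2 ratio of 0.33 (exact binomial adjusted p = 0.0746). Ect2, which activates RhoA at the cleavage furrow, stood at 1.33 and 1.76 TPM (log2 ratio 0.26), and Racgap1, its partner, at 3.90 and 4.26 TPM (0.16). Kif23, Prc1 and Anln, which bundle midzone microtubules or scaffold the contractile ring, had -0.06, 0.06 and -0.14. No gene of this role passed the test. Prc1 overlaps Rccd1 (155 and 216 counts) and Kif20a overlaps Cdc23 (495 and 703 counts), both on the opposite strand, as Ccna2 does Exosc9 (330 and 434) and Ccne2 does Ints8 (446 and 600), and the same limit on strand holds for them.

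A wider list of 49 other replication genes was set beside the 16. Of these, 9 were higher in replicate 2 past counting error (18.4%) and 0 lower, near the 14.8% higher over all genes tested. Their median log2 ratio was 0.19 and 40 were above 0, as were 50.3% of all genes tested. Mcm10, which binds the helicase at the fork, and Dtl, which targets Cdt1 for destruction, were called at 2-fold, with 0.40 and 0.87 TPM (log2 ratio 1.51) and 0.33 and 0.97 TPM (1.36). The other 7 past counting error were Gins2, Pola1, Prim2, Uhrf1, Dut, Wdhd1 and E2f2, with log2 ratios of 0.41 to 0.94. The most abundant of the list, Rpa1, Pold2 and Orc3, had log2 ratios of -0.02, 0.08 and -0.08 at 28.1 and 30.8, 14.2 and 17.8, and 13.4 and 14.2 TPM. The 50 other mitosis genes gave 1 gene past counting error, Cks1b, a Cdk-binding subunit named here for that reason (3.91 and 7.0 TPM, log2 ratio 0.53), with a median of 0.06 and 30 above 0. Their most abundant genes, Bub3, Ckap5 and Pttg1, had -0.12, 0.05 and -0.21.

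**Figure D3:**
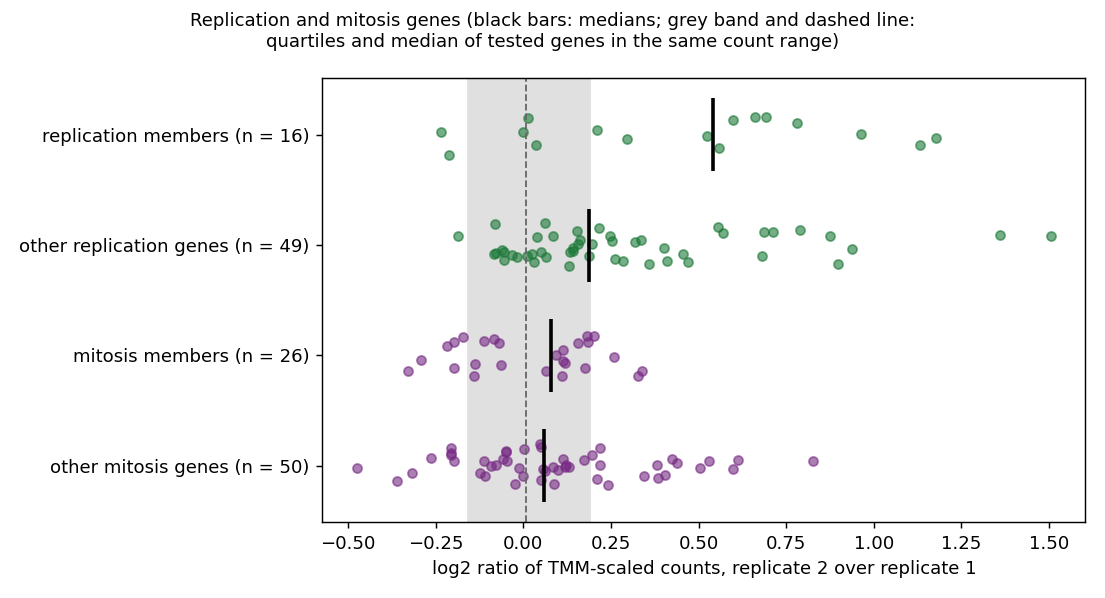
Log2 ratio of TMM-scaled counts, replicate 2 over replicate 1, with 1 point per gene, for the 16 replication and 26 mitosis genes and the 49 and 50 other genes of each process. Black bars are medians (0.54, 0.19, 0.08 and 0.06 from top to bottom), and the grey band and dashed line are the quartiles and median of tested genes in the same count range.

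The 42 genes have 249 annotated transcripts, and the most abundant one was the same in both libraries for 33 of the 41 genes with more than 1. It changed for Mcm5, Tyms, Ccne1, Ccne2, Prc1, Kif20a, Kif23 and Ect2. In Mcm5, Mcm5-203 held 80.2% of the gene in replicate 1 and 35.4% in replicate 2, where Mcm5-205, listed at 0 in replicate 1, held 61.5%; both are annotated as coding. The direct quantification gave Mcm5-205 43.9% and 95.6%, so both procedures put it higher in replicate 2. In Ect2, Ect2-207 held 40.2% in replicate 1 and 0% in replicate 2, where Ect2-202 held 67.3%, but the direct quantification gave Ect2-202 57.5% and 35.5%. These shares rest on few reads (58.6 counts for Ect2-207 in replicate 1) and carry no test.

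Transcripts annotated as protein coding held at least 90% of the TPM in both libraries for 20 of the 42 genes, Mki67 with 100% in both among them. They held under 50% in both libraries for Cenpa, the centromeric histone variant (25.1% and 10.9%), and Kif23 (47.6% and 33%), and under 50% in 1 library for Tyms (53.0% and 29.2%) and Ccne2 (47.4% and 54.0%). By the direct quantification the shares were 53.1% and 46.0% for Pcna and 42.6% and 61.6% for Ccnb1, both among the 20. Of the same 20, Mcm6 (80.9% and 82.4%) and Ccna2 (86.9% and 89.1%) were also under 90% in both libraries. Mcm5, Cdc6, Ccne1, Cdc20, Nusap1 and Anln were under 90% in 1 library, the lowest being Ccne1 with 70.2% in replicate 1. The rest of the 20 stayed at 90% or more in both libraries. Mki67 stayed at 100%. The direct shares were 12.6% and 9.16% for Cenpa, 48.5% and 59.0% for Kif23, 86.8% and 62.0% for Tyms and 54.6% and 60.3% for Ccne2. In Cenpa the leading transcript was Cenpa-202, annotated for nonsense-mediated decay, with 51.7% and 37.6%. The direct quantification instead gave Cenpa-202 3.43% and 0% and Cenpa-201, of the same annotation, 40.0% and 36.2%. Short non-coding transcripts weigh heavily on a per-length scale: Ccne2-205, of 432 bases, held 49.96% of the Ccne2 TPM in replicate 1 from 10.7 counts.

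**Figure D4:**
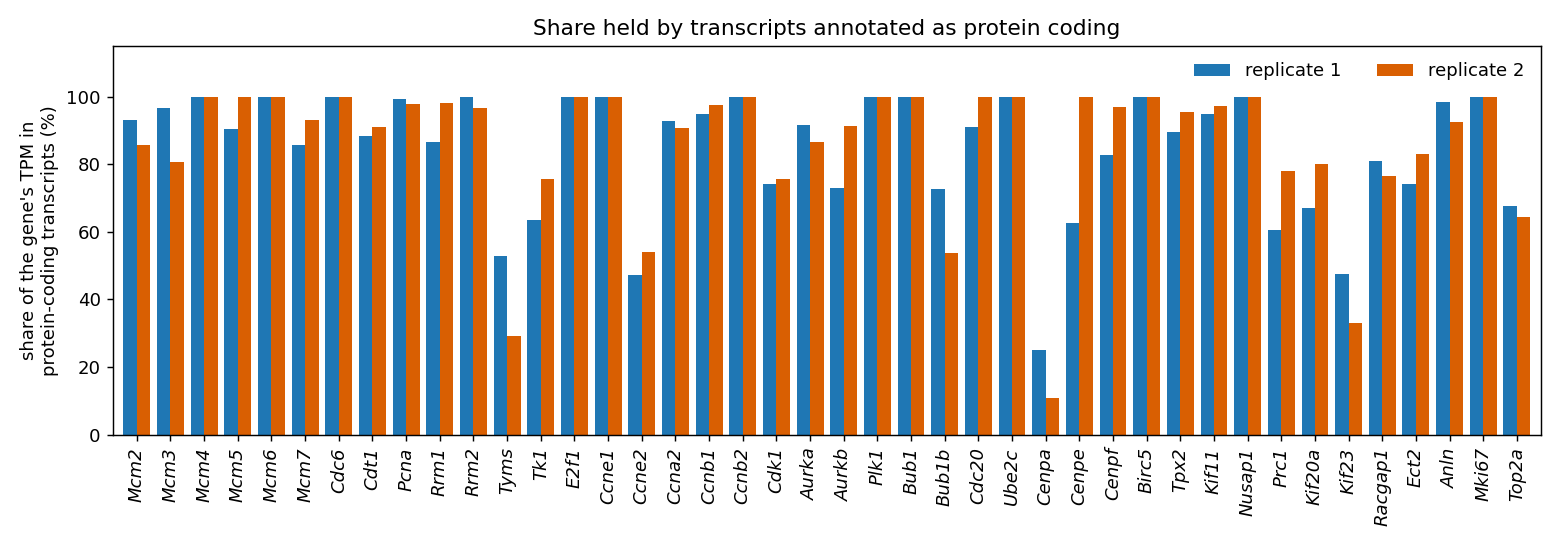
Percent of each gene's TPM held by transcripts annotated as protein coding, by the quantification from transcriptome alignments, in replicate 1 (blue) and replicate 2 (orange). Cenpa has the lowest bars (25.1% and 10.9%), followed by Tyms and Kif23 in replicate 2, while 20 of the 42 genes reach at least 90% in both libraries.

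Markers of other cell types also differed between the libraries, read against 14.8% of all genes higher and 16.7% lower. Of 8 Schwann cell markers, 8 were higher in replicate 2 past counting error, and their summed level was 270 TPM in replicate 1 and 705 in replicate 2. By the same test 8 of 10 fibro-adipogenic markers were higher (2269 and 3582 TPM, mostly Col1a1 with 1128 and 1958 and Col3a1 with 759 and 1135), as were 6 of 6 tendon markers (174 and 247 TPM). Pdgfra and Ly6a, the remaining fibro-adipogenic markers, had log2 ratios of -0.07 and -0.04 and did not pass. Of 10 erythroid markers, 7 were lower in replicate 2 past counting error (3150 and 1634 TPM), as were 6 of 9 endothelial markers (252 and 236 TPM), though the endothelial median log2 ratio of -0.21 was 0.02 with ERCC scaling. Of 12 satellite cell and myoblast markers, 2 were higher, Pax7 (1.66 and 2.52 TPM) and Mymk (11.9 and 17.7 TPM), and 2 lower, Sdc4 and Des. Their sum of 841 and 881 TPM was mostly Des (733.96 and 761.64). All 6 muscle fibre markers were lower past counting error, with a median log2 ratio of -0.13 that was 0.10 with ERCC scaling, and of 8 mural cell markers 4 were higher and 3 lower, Acta2 among the higher (log2 ratio 1.18). The germ cell and marrow markers summed to 0.24 and 0.08 TPM, with Ddx4 and Prtn3 at 0 counts in both libraries. Of 7 granulocyte and mast cell markers, Elane was at 0 in both libraries and Mpo in replicate 2, Cma1 and Cpa3 were higher and S100a9 (15 and 5 counts) lower past counting error. Of 9 macrophage markers 1 was higher and 0 lower, with a median log2 ratio of 0.07. Of 8 lymphoid markers 3 had enough counts for the test, and 0 passed. Of 6 adipocyte markers 1 was higher and 2 lower. The part of these cell types in the difference of the Mcm genes was not tested.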

How the data were processed

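The submission holds, per library, 1 gene table and 1 transcript table from transcriptome alignments, and 1 further transcript table quantified from the reads themselves. Per the accompanying notes the authors used mm10 and GENCODE M21; which quantifiers made the tables is not given in the sources used here. Per the file headers, the deposited tables hold expected counts, which split a read among the genes it fits, TPM with a posterior interval, and isoform percent. The direct tables of the authors hold estimated counts and TPM, summed here per gene.

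All 42 genes were read by symbol, and all 55536 gene identifiers matched M21. Expected counts were rounded, and library sizes (35591969 and 42105815) were multiplied by TMM factors of 0.954 and 1.05 from edgeR 4.0.16, whose common coefficient of variation was 0.159; DESeq2 1.42.0 size factors, total counts and ERCC spike-in counts were alternatives. Software was scipy 1.17.1, numpy 2.4.6 and pandas 2.3.3 under Python 3.11.15, plus R 4.3.3. As each side is 1 library, no quasi-likelihood test has residual degrees of freedom, so genes with a summed count of at least 20 went into an exact binomial test (two-sided), adjusted by Benjamini-Hochberg over all of them. A gene was past counting error at an adjusted p under 0.05 and called with at least 2-fold change besides. Ratios use a prior count of 0.5 and 95% Clopper-Pearson intervals; a count of 0 allows up to 3. A gene was said to share reads where the posterior standard deviation exceeded 1% of its count. Named genes are the 42, the called genes and the 3 most abundant of each wider list, member pseudogenes, and markers by list. The 42 genes and all lists were chosen with earlier results of these data known.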

Additional observations from a re-analysis of the deposited data

How the results depend on the processing

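The 42 genes summed to 131 TPM on average, 118 to 144 when either replicate was left out, 187 with the direct quantification, 267.8 over nuclear protein-coding genes and 271.5 as CPM. Replication over mitosis, 0.775, ran from 0.728 to 0.822 without a replicate and was 0.979 with the direct quantification, 0.585 as CPM, 0.607 without genes that share reads and 1.16 as a ratio of medians. Relative to TMM, total gene counts shift every log2 ratio by 0.14 and ERCC counts by 0.23. Genes past counting error in replicate 2 then numbered 14 with total counts and 21 with ERCC counts, against 8, while the share over all genes tested rose from 14.8% to 29.8% and 43.8%. Called genes numbered 4 with ERCC counts, 1 with at least 100 counts and 6 at 1.5-fold, against 2. Over all genes tested, 3.65% were called higher with ERCC counts and 2.62% with total counts, against 1.75% with TMM. The shares over all genes at 1.5-fold and with at least 100 counts are not given here. The replication median was 0.68 with total counts, 0.77 with ERCC counts, 0.41 with at least 100 counts and 0.41 with the direct quantification. The mitosis median was 0.21, 0.31 and, with the direct quantification, 0.0056. Called genes of the other replication list numbered 4 and 5 with total and ERCC counts, and of the other mitosis list 1 with ERCC counts. CCAAT searched on the given strand alone was found in 26.7% of replication and 62.5% of mitosis entries, against 19.1% of all entries. On that strand CHR was found in 13.3% and 37.5%, against 10.2% of all. E2F was found in 26.7% and 8.33%, against 4.19% of all. The log2 ratio changed sign for 15 of the 42 genes, none of them past counting error. With total counts it became 0.13 for Mcm7, 0.022 for Ccnb2, 0.066 for Cenpf, 0.050 for Tpx2 and 0.072 for Kif23. With ERCC counts it became 0.23 for Mcm7, 0.016 for Ccne2, 0.030 for Ccna2, 0.11 for Ccnb2, 0.086 for Plk1, 0.029 for Bub1b, 0.057 for Cenpa, 0.16 for Cenpf, 0.14 for Tpx2, 0.0085 for Kif11, 0.16 for Kif23 and 0.089 for Anln. With the direct quantification it became -0.055 for Rrm1, -0.054 for Aurka, -0.12 for Ube2c and 0.053 for Tpx2. Apart from the scaling shift the cause was not tested. No paired analysis was possible because there is only 1 group. Tests cover counting error alone, the 2 libraries give no measure of spread between animals beyond n = 2, and low-count genes such as Cdc6 and Ccne1 have wide intervals.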
